A study of Mus musculus with 8 samples.

Results

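This account follows 7 genes around the peptide TLQP21 in mouse pancreatic tumours: Vgf, the gene of its precursor; C3ar1, C1qbp and Hspa8, reported as its receptors or binding proteins; C3, the source of the natural C3ar1 ligand; and C5ar1 and C5ar2, receptors of the sister ligand C5a. The genes were taken by symbol for their place around the peptide, with earlier results of these data known. Each symbol stood on a single row of the 54532 genes in the deposited count table. Of the 7 members, 6 had enough reads for the gene test, and Vgf did not.

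Tumours were grown in the pancreas of C57BL/6 mice from implanted KPC cells, a cancer line of the mouse pancreas. The 4 TLQP21 libraries came from mice given the peptide for 2 weeks, and the 4 Saline libraries from mice given saline for 2 weeks. All 8 share the strain, the cell line and the implantation. Dose, route and age are not given in the sources used here. The submitters describe smaller tumours under the peptide, and the comparison asks which transcripts go with the treatment. Whole tumours were sequenced, so that more or fewer cells of a type and more or less RNA per cell cannot be told apart. The labels name pancreatic cancer cells, and the libraries held more than these: 9 epithelial tumour markers summed to 6784 to 7098 CPM (counts-per-million, scaled by library) in TLQP21 and 6400 to 6849 CPM in Saline, beside 12 macrophage markers at 1979 to 3575 CPM in TLQP21 and 2624 to 3730 CPM in Saline.

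VGF is a secreted protein of neurons and endocrine cells, which prohormone convertases cut into several signalling peptides. TLQP21 is one of them, named after its first 4 amino acids and its length of 21. In rodents it has been reported to activate C3ar1, a G protein-coupled receptor of myeloid cells whose known ligand is C3a, the fragment released when complement protein C3 is cleaved. The binding proteins reported beside it, C1qbp and Hspa8, are abundant intracellular proteins: C1qbp resides mainly in the mitochondrial matrix, and Hspa8 is the constitutive HSP70 chaperone of the cytosol.

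The stretch of Vgf that codes for TLQP21 is shown because it is the part of the gene that corresponds to the peptide given. It was found by translating the annotated coding sequence of 617 codons. It lies on chromosome 5, chr5:137032651-137032713 of GRCm38, plus strand, within the coding part of the last exon, and covers codons 556 to 576. Capitals mark its 4 arginine codons. The last codon is one of them, as is the codon just before the stretch, so that a basic residue stands at each cleavage border.
Vgf, TLQP21 codons: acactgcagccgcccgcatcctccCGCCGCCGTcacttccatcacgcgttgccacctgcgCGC

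Facts of the libraries that touch these genes were the following. Total counts ran from 29027480 to 33536087 in TLQP21 and from 28358465 to 28963457 in Saline. Libraries 1 and 2 of each group carried Xist, which coats the silenced X chromosome, and libraries 3 and 4 of each group carried Y-linked transcripts instead, a split that the labels do not mention. Saline 2 held liver transcripts: 9 hepatocyte markers summed to 4685 CPM there, against 32.9 to 68.9 CPM in the 4 TLQP21 libraries and 41.1 to 63.9 CPM in the other 3 Saline libraries. Saline 4 had the most acinar transcripts: 12 markers of enzyme-secreting pancreas cells summed to 55630 CPM there, against 10700 to 30510 CPM in TLQP21 and 11850 to 24320 CPM in the other 3 Saline libraries. It also had the highest C5ar1 and the second highest C3, and the part of the acinar cells in these values was not tested. Among 18238 genes tested with edgeR's quasi-likelihood test, 0 passed an adjusted p (Benjamini-Hochberg) of 0.05, which is 0% of those tested. An unadjusted p under 0.05 was seen for 558 genes (3.06%), of which 145 were higher in TLQP21 (0.795%) and 413 lower (2.26%).

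None of the 6 members tested passed over all genes. C3 had the largest difference among them: it lay lower under the peptide, at 0.682 times its Saline mean. The reported receptor C3ar1 stood at 1.07 times its Saline mean, C1qbp at 0.92 times and Hspa8 at 0.992 times. The adjusted p was 0.9999 for each of the 6 (edgeR). For 0 of the 6 did the ranges of the groups separate, beside 302 of all genes tested (1.66%).

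**Figure D1:**
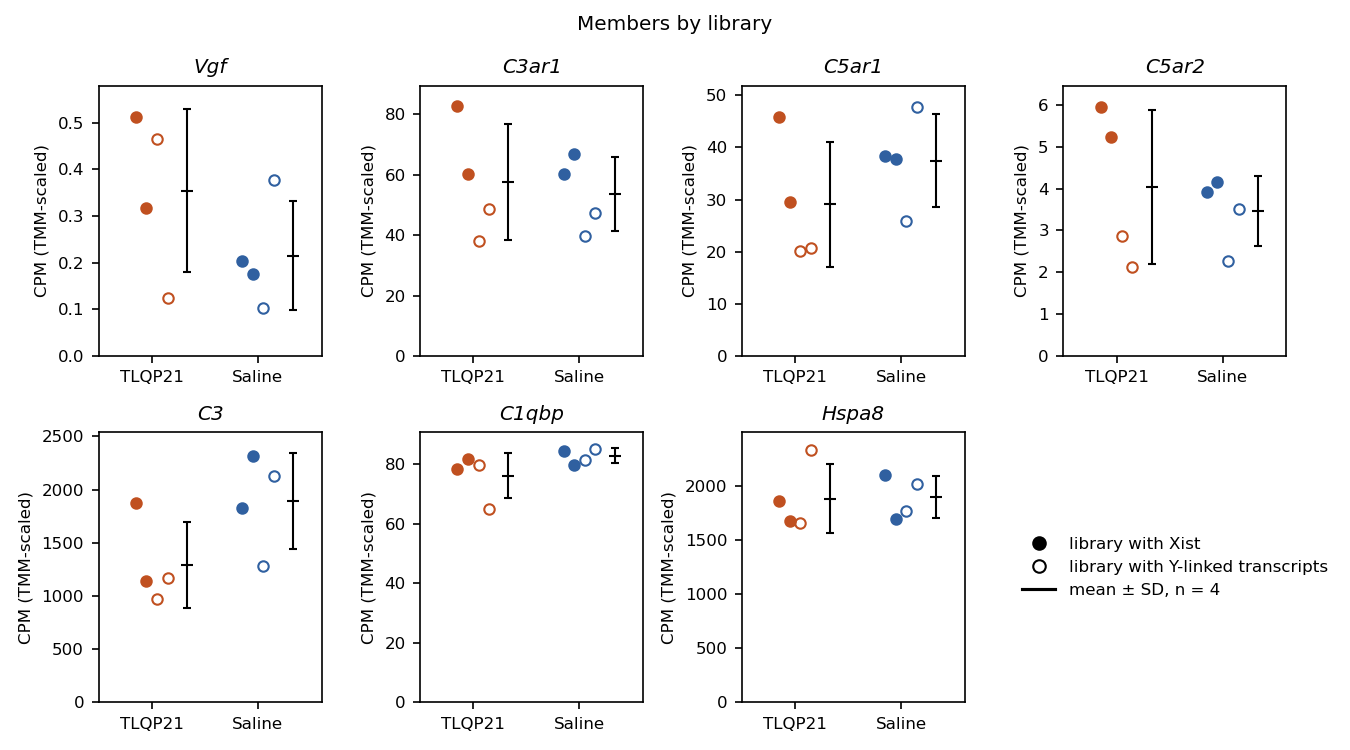
CPM of each member in the 8 libraries, TLQP21 left and Saline right; filled points are libraries with Xist, open points libraries with Y-linked transcripts, and bars give the mean ± SD (n = 4). The groups overlap for all 7 genes; C3 spans 970 to 1877 CPM in TLQP21 and 1282 to 2319 CPM in Saline, and Vgf stays below 1 CPM throughout.

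Vgf was near the limit of detection. It had 15, 11, 14 and 4 reads in TLQP21 libraries 1 to 4, and 6, 5, 3 and 10 reads in Saline libraries 1 to 4. These are 0.513, 0.317, 0.465 and 0.124 CPM in TLQP21, against 0.204, 0.175, 0.103 and 0.378 CPM in Saline. TLQP21 1, 2 and 3 thus stood above 3 Saline libraries, while TLQP21 4 was among the lowest and Saline 4 among the highest. The means were 0.355 ± 0.175 CPM in TLQP21 and 0.215 ± 0.117 CPM in Saline (SD, n = 4 each), and the difference did not exceed the spread (exact two-sided permutation p = 0.229, where 70 assignments allow no less than 0.0286). Per kilobase of transcript, Vgf stood at the 1.57th percentile of the genes tested.

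Genes that mature or accompany VGF were present at mostly low levels. All 10 genes of the convertase and granin list were tested, and 0 passed in either direction. Of them, 2 lay above 0 and 8 below, with a median log2 fold change of -0.26, beside 0.0020 over all genes tested. Pcsk1, the convertase that opens prohormones at basic pairs, was at 0.547, 0.662, 1.03 and 0.803 CPM in TLQP21, against 1.16, 0.560, 1.10 and 1.59 CPM in Saline (log2 fold change -0.53, SE 0.35). Chgb, a granin of secretory granules, was at 1.67 to 3.34 CPM in TLQP21 and 1.92 to 5.98 CPM in Saline (-0.60, SE 0.40), with Saline 4 highest. The most abundant of the list was Pam, the enzyme that amidates peptide ends, at 211 to 283 CPM in TLQP21 and 211 to 237 CPM in Saline. Islet markers, which include the insulin genes, summed to 204 to 289 CPM in TLQP21 and 122 to 426 CPM in Saline. Neuron and Schwann cell markers summed to 35.9 to 48.9 CPM in TLQP21 and 38.8 to 46.98 CPM in Saline. The part of either cell type in the Vgf reads was not tested.

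C3ar1 is the receptor through which C3a acts on macrophages, mast cells and other myeloid cells. It was at 82.9, 60.3, 38.2 and 48.6 CPM in TLQP21 libraries 1 to 4, and at 60.4, 66.9, 39.9 and 47.2 CPM in Saline libraries 1 to 4. TLQP21 1 was the highest and TLQP21 3 the lowest of all 8, so that the TLQP21 range enclosed the Saline range. The log2 fold change was 0.10 (SE 0.24), with a 95% interval from -0.43 to 0.63. It turned to -0.13 without TLQP21 1 and to -0.02 without Saline 3.

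The spread of C3ar1 followed the split between libraries more closely than the treatment. Libraries with Y-linked transcripts held 38.2 to 48.6 CPM and libraries with Xist 60.3 to 82.9 CPM, without overlap. In a fit with both terms, the log2 difference of C3ar1, Y-linked minus Xist libraries, was -0.64 (SE 0.13), and it did not pass over all genes (edgeR, adjusted p = 0.0988). C5ar2 separated in the same direction, at 2.13 to 3.52 CPM in the Y-linked libraries and 3.91 to 5.95 CPM in the Xist libraries (-0.83, SE 0.23, edgeR adjusted p = 0.199). In that direction 832 of the genes tested (4.56%) did not overlap, and 68 genes (0.373%) passed in either direction. Among 12 macrophage markers, Fcgr1 also separated in that direction (-0.59, SE 0.12, edgeR adjusted p = 0.101). Lyz2 (-0.50) and Mertk (-0.40) lay lower with overlap, and only Adgre1 (0.011) and Mrc1 (0.11) lay above 0. Within the libraries with Xist, the log2 ratio of TLQP21 over Saline was 0.17 for C3ar1, and it was -0.0069 within the Y-linked libraries.

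C5ar1, the G protein-coupled receptor of C5a that draws neutrophils and macrophages to complement activation, was at 45.8, 29.5, 20.2 and 20.6 CPM in TLQP21, against 38.3, 37.8, 25.9 and 47.8 CPM in Saline. TLQP21 3 and TLQP21 4 were the lowest of all libraries, and TLQP21 1 lay near the top of the Saline range. The log2 fold change was -0.37 (SE 0.27), with a 95% interval from -0.98 to 0.25, and it was -0.67 without TLQP21 1. It was -0.23 without TLQP21 3, without TLQP21 4 or without Saline 4. Within the libraries with Xist the log2 ratio was -0.012, and within the Y-linked libraries -0.85. The test of that inequality, an interaction term, gave -0.84 (SE 0.42) and did not pass over all genes (edgeR, adjusted p = 0.842).

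C5ar2, the second C5a receptor, does not couple to G proteins. It was at 5.95, 5.24, 2.86 and 2.13 CPM in TLQP21 and at 3.91, 4.17, 2.27 and 3.52 CPM in Saline. TLQP21 1 and TLQP21 2 stood above every Saline library, and TLQP21 4 was the lowest of all. The log2 fold change was 0.22 (SE 0.35), and -0.022 without TLQP21 1. C5ar1 and C5ar2 lie side by side on the minus strand of chromosome 7 (GRCm38), at 16246743 to 16259540 and at 16234585 to 16244154, with 2588 bases between them.

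C3 is the central complement protein, made by liver, and also by epithelium, fibroblasts and macrophages. It was at 1877, 1144, 970 and 1167 CPM in TLQP21 libraries 1 to 4, and at 1830, 2319, 1282 and 2129 CPM in Saline libraries 1 to 4. TLQP21 2, 3 and 4 lay below every Saline library, and TLQP21 1 lay inside the Saline range. The means were 1290 ± 401 CPM in TLQP21 and 1890 ± 452 CPM in Saline (SD, n = 4 each), with a log2 fold change of -0.55 (SE 0.24) and a 95% interval from -1.08 to -0.03. The unadjusted p was 0.0416, and C3 did not pass over all genes (edgeR). With 1 library left out in turn, the unadjusted p ran from 0.00341 to 0.114, and it was above 0.05 without Saline 1, 2 or 4 or without TLQP21 2, 3 or 4. Without TLQP21 1 the log2 fold change was -0.79. Without Saline 2, the library with liver transcripts and the highest C3, it was -0.44. Within the libraries with Xist the log2 ratio was -0.46, and within the Y-linked libraries -0.67.

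C1qbp, also called p32 or the receptor of globular C1q heads, was the steadiest member, with a coefficient of variation of 7.97% over the 8 libraries. It was at 78.2, 81.6, 79.6 and 64.9 CPM in TLQP21, against 84.6, 79.8, 81.5 and 85.1 CPM in Saline. TLQP21 4 stood below all the others, which covered 78.2 to 85.1 CPM. The log2 fold change was -0.12 (SE 0.088), -0.055 without TLQP21 4 and -0.038 by limma's voom with quality weights.

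Hspa8 was at 1860, 1675, 1654 and 2337 CPM in TLQP21, against 2105, 1696, 1768 and 2020 CPM in Saline, with TLQP21 4 highest. The log2 fold change was -0.012 (SE 0.14), with a 95% interval from -0.32 to 0.30, and 0.011 with plain library totals. Hspa8 has processed copies in the genome, so its counts are uncertain where the counting could split reads among them. The inducible relatives behaved otherwise in 1 library: Hspa1a had 285 CPM in Saline 4, against 14.7 to 44.2 CPM in TLQP21 and 16.9 to 37.0 CPM in the other Saline libraries. Hspa1b had 689 CPM there, against 62.1 to 165 CPM in TLQP21 and 58.6 to 150 CPM in the other Saline libraries. These near-identical copies can share reads.

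**Figure D2:**
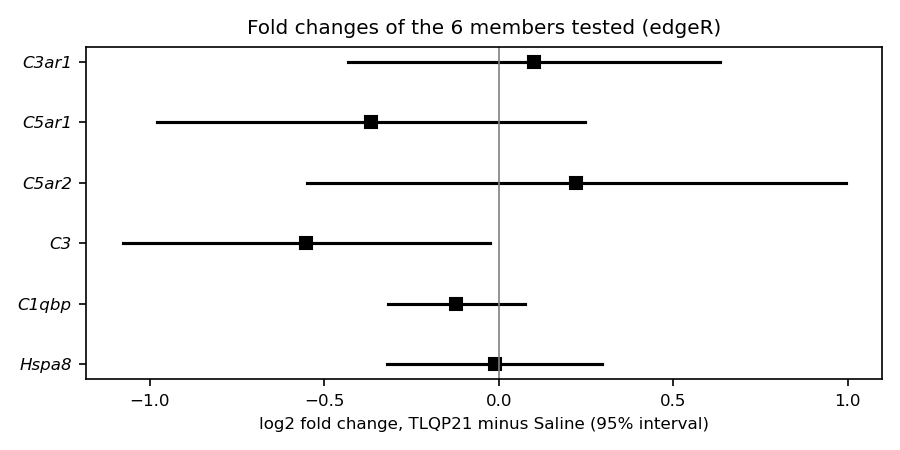
Log2 fold change of TLQP21 minus Saline (squares) with its 95% interval (lines) for the 6 members tested with edgeR, n = 4 per group. The interval of C3 runs from -1.08 to -0.03; the intervals of the other 5 include 0, and those of C1qbp and Hspa8 are the narrowest.

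Levels between genes were compared as CPM per kilobase of transcript. Over the 8 libraries Hspa8 was highest at 439 ± 56.8 (SD), then C3 at 309 ± 99.1, C1qbp at 28.1 ± 2.24, C5ar1 at 12.9 ± 4.19, C3ar1 at 12.9 ± 3.50, C5ar2 at 1.06 ± 0.382 and Vgf at 0.0958 ± 0.0527. Hspa8 was above C3 in 7 of 8 libraries, and the ranges of these neighbours overlapped. C5ar1 and C3ar1 did not differ beyond their spread, since C5ar1 was the higher in 3 of 8 libraries. Each of the other neighbours in this order kept its place in 8 of 8 libraries without overlap.

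Ratios between members were formed after the values above had been seen and are therefore given without a test. Of 15 ratios among the 6 members tested, 2 separated the treatments, both with C3ar1. The share of such separations over all pairs of genes was not computed, so the count cannot be set against it. C3ar1 over C3, the receptor against the source of its ligand, had log2 ratios per kilobase of -4.24, -3.99, -4.41 and -4.33 in TLQP21 libraries 1 to 4, and of -4.67, -4.86, -4.75 and -5.24 in Saline libraries 1 to 4. Every TLQP21 library thus had more receptor transcript for its C3 transcript than every Saline library, by 0.64 in the mean. TLQP21 1 had the highest C3 and the highest C3ar1 of its group. The differences were 0.65 among Xist libraries and 0.62 among Y-linked libraries, with a sign fixed by the lack of overlap.

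C3ar1 over C5ar1 was the other ratio that separated, at 0.11, 0.29, 0.17 and 0.49 in TLQP21 and at -0.087, 0.081, -0.13 and -0.76 in Saline. TLQP21 1 and Saline 2 lay closest across the gap. C5ar1 over C5ar2 overlapped, at 2.97 to 3.75 in TLQP21 and 3.65 to 4.23 in Saline.

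**Figure D3:**
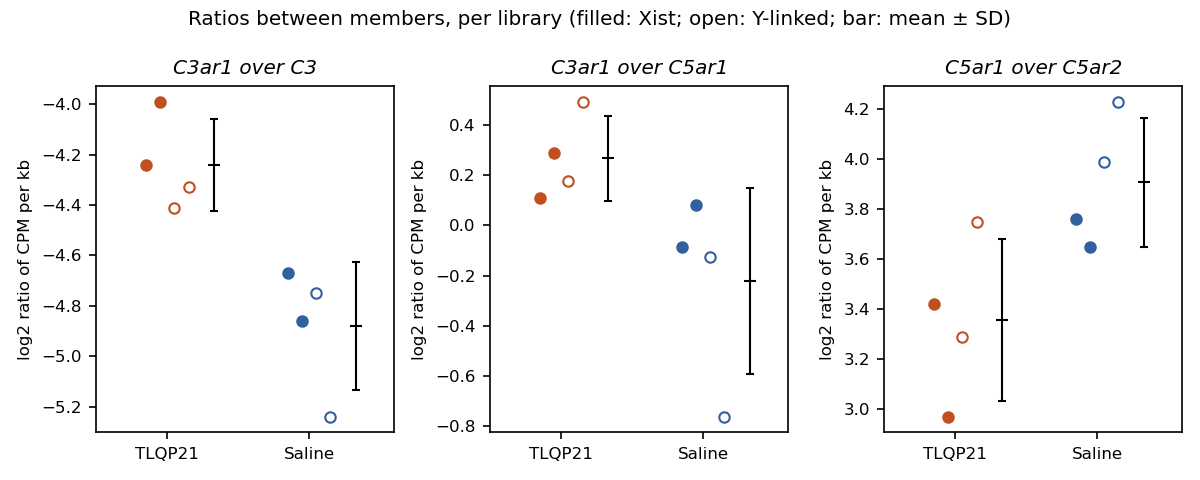
Log2 ratio of CPM per kilobase between members in each library, TLQP21 left and Saline right; filled points are libraries with Xist, open points those with Y-linked transcripts, bars the mean ± SD (n = 4). C3ar1 over C3 lies at -4.41 to -3.99 in TLQP21 and at -5.24 to -4.67 in Saline; C5ar1 over C5ar2 overlaps.

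The 250 bases before the start sites of C3 and C3ar1 are shown because their ratio separated the groups. RefSeq windows of GRCm38.p6 were matched by symbol for 5 of 7 members (C3ar1, C5ar1, C5ar2, C3 and C1qbp, with 6 windows). Both strands were searched for the letters TTNCNNAA, read by C/EBP factors, and GAGGAA, read by the myeloid factor PU.1. Both were also searched for a simplified NF-kappaB pattern that leaves some bases open, called the NF-kappaB letters here. A match to this pattern need not hold the full NF-kappaB consensus. The C/EBP and PU.1 letters can overlap. Capitals mark each match. The C3 window lies at chr17:57228137-57228386 and the C3ar1 window at chr6:122856158-122856407, both on the minus strand and printed 5′ to 3′.
C3: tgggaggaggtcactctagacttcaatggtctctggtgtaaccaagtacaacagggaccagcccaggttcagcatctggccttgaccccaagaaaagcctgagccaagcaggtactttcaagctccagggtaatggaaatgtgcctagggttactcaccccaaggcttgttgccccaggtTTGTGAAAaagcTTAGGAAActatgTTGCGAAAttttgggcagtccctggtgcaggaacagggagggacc
C3ar1: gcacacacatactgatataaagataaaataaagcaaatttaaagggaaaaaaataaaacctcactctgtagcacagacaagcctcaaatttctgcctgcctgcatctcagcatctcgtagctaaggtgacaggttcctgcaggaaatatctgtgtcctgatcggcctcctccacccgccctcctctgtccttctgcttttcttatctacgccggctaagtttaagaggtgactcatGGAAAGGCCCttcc
C3 held the C/EBP letters at 3 places, 70, 58 and 45 bases before the start, the first 2 on the opposite strand and the last on both strands. C3ar1 held none of these, and held the NF-kappaB letters on the opposite strand 14 bases before the start. Neither window held the PU.1 letters. The windows of C5ar1 and C1qbp each held the C/EBP letters at 1 place. Of the 2 windows of C5ar2, 1 held the C/EBP letters at 2 places and the NF-kappaB letters at 1. The other held the C/EBP and the PU.1 letters at 1 place each. Of 32851 windows of this length, 36.8% held the C/EBP letters at least once, 4.11% those of NF-kappaB and 23.3% those of PU.1. The share of windows with the C/EBP letters at 3 places was not computed. These are matches of letters and not measured sites.

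Members were also set against the level of a gene list, the mean log2 CPM of its tested genes, in 7 differences. None passed after adjustment over the 7 (exact two-sided permutation tests, smallest adjusted p = 0.0667). The lists and differences were chosen with earlier results of these data known, which these p-values do not take into account. The 3 separations given here held for the list mean and were lost for the list median (exact permutation p = 0.0857 and adjusted p = 0.15 for each). C3ar1 relative to 12 macrophage markers was at -0.52 ± 0.16 in TLQP21 and -0.91 ± 0.13 in Saline (SD, n = 4 each). The groups did not overlap, which with 4 libraries against 4 always gives the smallest possible exact permutation p, 0.0286. The difference was 0.39, and against the list median it was 0.38 with overlap. The macrophage level itself was 6.31 ± 0.39 log2 CPM in TLQP21 and 6.62 ± 0.22 log2 CPM in Saline. Taken marker by marker, C3ar1 lay higher relative to 11 of 12 in the mean, and the groups separated for 2, both also expressed by neutrophils. How often a member minus a single gene separates the groups over all genes was not computed. Such counts, here and for the lists below, therefore cannot be set against a share. For C3ar1 relative to the macrophage genes Adgre1 and Mertk the groups overlapped. The most abundant of the 12, the lysozyme gene Lyz2, gave -4.66 to -4.51 in TLQP21 and -5.20 to -4.98 in Saline. The integrin gene Itgam gave 0.63 to 1.02 in TLQP21 and -0.071 to 0.55 in Saline. The mannose receptor gene Mrc1 was the exception, at -0.087 in the mean. Of the 12 macrophage genes none passed (edgeR); 1 had a fold change above 0 and 11 below, with a median of -0.32, where 50.6% of all genes tested lay above 0. By its own CPM 1 of the 12 separated the groups, beside 1.66% of all genes tested. This was Adgre1, at 78.4 to 106.9 CPM in TLQP21 and 121.6 to 135.6 CPM in Saline (log2 fold change -0.47, SE 0.11). The macrophage level overlapped, at 6.0 to 6.87 log2 CPM in TLQP21 and 6.36 to 6.87 log2 CPM in Saline.

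C3 relative to 9 fibroblast markers was at 1.69 ± 0.19 in TLQP21 and 2.25 ± 0.33 in Saline, without overlap (difference -0.56, exact permutation p = 0.0286, adjusted p = 0.0667). The groups separated for 1 of the 9 markers taken singly. Against the list median the difference was -0.94 and the groups overlapped. The fibroblast level was 8.60 ± 0.23 log2 CPM in TLQP21 and 8.60 ± 0.36 log2 CPM in Saline. C3 relative to 9 epithelial tumour markers was at 0.96 to 1.93 in TLQP21 and 1.46 to 2.20 in Saline (difference -0.61, exact permutation p = 0.0571, adjusted p = 0.08). None of the 9 epithelial markers taken singly separated the groups. The epithelial level was 8.94 to 8.99 log2 CPM in TLQP21 and 8.87 to 8.98 log2 CPM in Saline. Without Saline 2 these differences of C3 were -0.40 against fibroblast and -0.52 against epithelial markers.

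The C5a receptors were set against 10 neutrophil markers, whose level was 3.8 ± 0.43 log2 CPM in TLQP21 and 4.58 ± 0.61 log2 CPM in Saline. All 10 had fold changes below 0, where 50.6% of all genes tested lay above 0, and none passed. An unadjusted p under 0.05 was seen for 7 of the 10, all lower in TLQP21 (edgeR). That share was 2.26% among all genes tested. C5ar1 relative to the 10 markers was at 0.98 ± 0.31 in TLQP21 and 0.61 ± 0.31 in Saline (exact permutation p = 0.171, adjusted p = 0.2). Against the median of the list in place of its mean, the difference was -0.0084. C5ar2 relative to them was at -1.88 ± 0.55 in TLQP21 and -2.80 ± 0.55 in Saline (exact permutation p = 0.0571, adjusted p = 0.08). The C5ar2 difference was 0.92, and 0.54 against the list median (exact permutation p = 0.229). Saline 4 had the highest neutrophil level, 5.42 log2 CPM, and the lowest value of both receptors relative to it.

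C1qbp relative to 15 genes of mitochondrial translation and matrix chaperones was at 0.20 ± 0.15 in TLQP21 and 0.36 ± 0.029 in Saline, without overlap (difference -0.15, exact permutation p = 0.0286, adjusted p = 0.0667). TLQP21 4 gave -0.023 and the other 3 TLQP21 libraries were close below the Saline range of 0.337 to 0.40; without TLQP21 4 the difference was -0.079. Against the list median it was -0.17 with overlap, and 0 of the 15 genes taken singly separated the groups. The level of the matrix genes was 6.04 ± 0.038 log2 CPM in TLQP21 and 6.01 ± 0.033 log2 CPM in Saline. Hspa8 was set against 21 genes, mostly cytosolic chaperones and co-chaperones, with Hspa13 and the regulator Hsf1 among them. Relative to these, Hspa8 was at 4.54 ± 0.13 in TLQP21 and 4.39 ± 0.28 in Saline (difference 0.15, exact permutation p = 0.457), with Saline 4 lowest. The difference was 0.015 without Saline 4 and 0.25 against the list median.

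**Figure D4:**
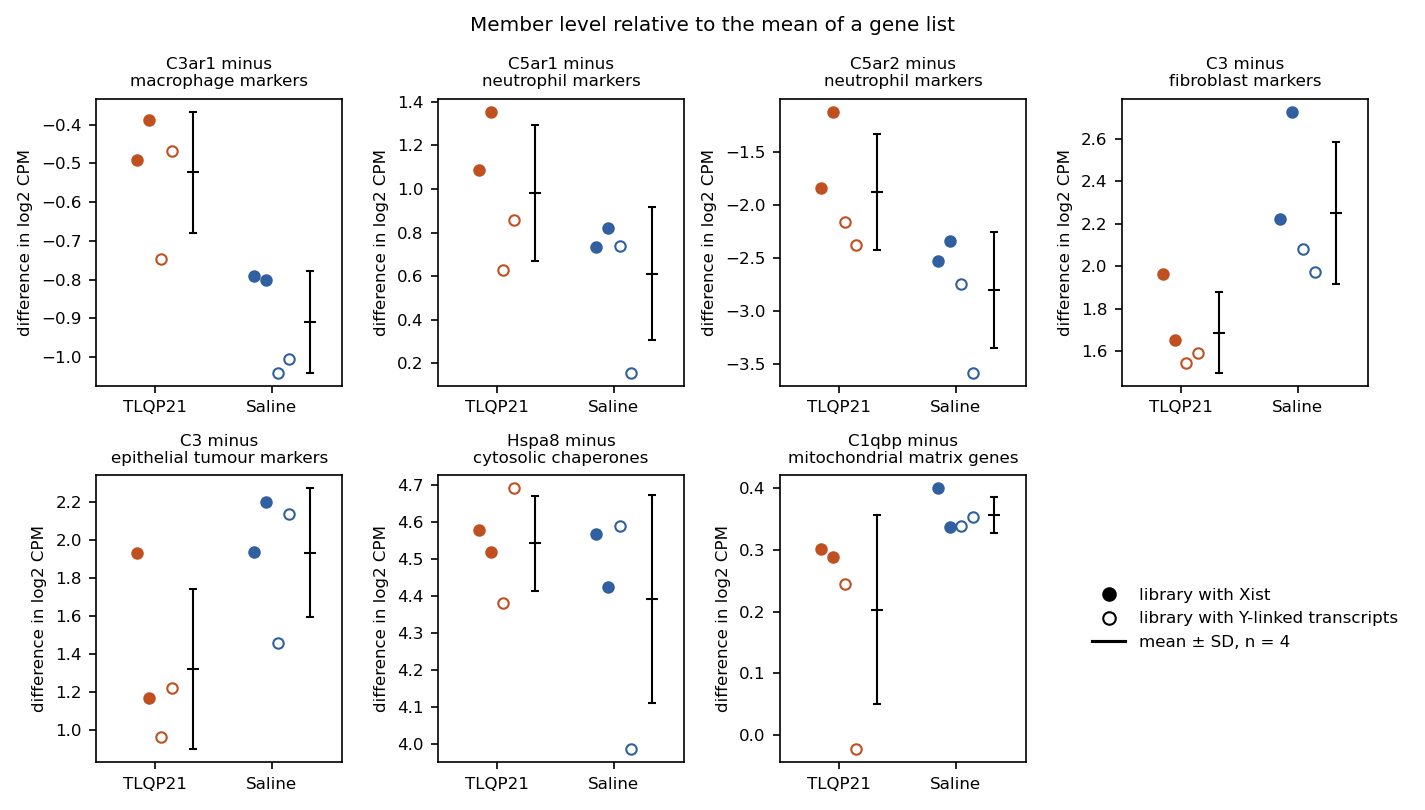
Log2 CPM of a member minus the mean log2 CPM of a gene list in each library, TLQP21 left and Saline right; filled points are libraries with Xist, open points those with Y-linked transcripts, bars the mean ± SD (n = 4). C3ar1 against macrophage markers, C3 against fibroblast markers and C1qbp against mitochondrial matrix genes do not overlap between the groups with the list mean plotted here; the other 4 differences overlap.

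The list of proteins that lead to, form or stabilise the convertases of C3 had 11 of 12 genes tested. None passed in either direction; 1 lay above 0 and 10 below, with a median log2 fold change of -0.26. C2, the protease subunit of the classical convertase, was at 7.63 to 13.0 CPM in TLQP21 and 11.6 to 14.5 CPM in Saline. Like C3, it was lower in TLQP21 2, 3 and 4 than in every Saline library, and TLQP21 1 lay inside the Saline range (-0.47, SE 0.19). C4b, its partner in that convertase, was at 144 to 296 CPM in TLQP21 and 185 to 341 CPM in Saline, and Cfp, the properdin that stabilises the alternative convertase, at 29.7 to 109.6 CPM in TLQP21 and 85.9 to 117 CPM in Saline. C1qa, a chain of C1q and the most abundant of the list, was at 181 to 459 CPM in TLQP21 and 344 to 405 CPM in Saline.

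A wider list of complement regulators, with receptors of C3 fragments, had 13 of 15 genes tested, with 3 above 0, 10 below and none passing (median -0.14). It held proteins that inactivate C3b or trim C3a, and also inhibitors of other complement steps. Clu, a secreted chaperone that restrains the terminal complex, was the most abundant at 3983 to 5181 CPM in TLQP21 and 4177 to 5233 CPM in Saline. C4bp and Vtn are made largely in liver: C4bp had 38.7 CPM and Vtn 124 CPM in Saline 2. In TLQP21 they were at 2.06 to 2.94 CPM and 3.98 to 11.5 CPM, and in the other Saline libraries at 2.12 to 9.68 CPM and 4.81 to 16.4 CPM. Cpn1, the catalytic subunit of the carboxypeptidase that removes the last arginine of C3a, had 13.2 CPM in Saline 2, against 3.55 to 5.71 CPM in TLQP21 and 4.43 to 7.98 CPM in the other Saline libraries.

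The C5 side of the axis was sparse. Hc, the mouse gene of C5 and thus the source of C5a, was at 1.06, 1.78, 1.26 and 2.04 CPM in TLQP21, against 1.40, 47.7, 1.75 and 0.756 CPM in Saline, where only the library with liver transcripts stood out. Of the 7 terminal pathway genes 4 were tested, with 1 above 0, 3 below and none passing. The receptors of iC3b, the inactivated form of C3b, had 5 of 5 genes tested, 2 above 0, 3 below and none passing. Itgb2, the shared beta chain of the leukocyte integrins, was at 97.2 to 169 CPM in TLQP21 and 134 to 173 CPM in Saline.

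Of 16 G protein, arrestin and receptor kinase genes, which carry or end the signal of C3ar1 and C5ar1 inside the cell, 3 lay above 0, 13 below and none passed (median -0.12). Gnai2, the main inhibitory G protein of leukocytes, was at 323 to 381 CPM in TLQP21 and 352 to 443 CPM in Saline, and Arrb1, an arrestin, at 110 to 119 CPM in TLQP21 and 114 to 135 CPM in Saline. Markers of mast cells, which also carry C3ar1, summed to 29.5 to 56.3 CPM in TLQP21 and 37.1 to 88.3 CPM in Saline, and their part in the C3ar1 values was not tested.

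**Figure D5:**
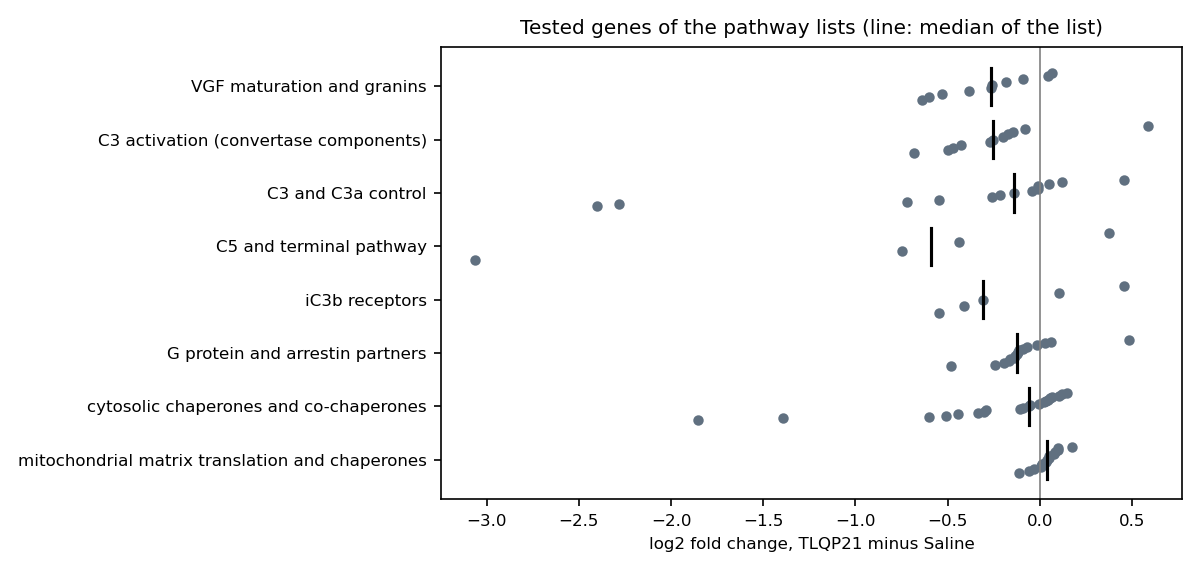
Log2 fold change, TLQP21 minus Saline, of each tested gene (points) in 8 lists, with the median of the list as a vertical line. The medians lie between -0.59 for the terminal pathway and 0.038 for the mitochondrial matrix genes; the lowest point, at -3.06, is Hc, which is high in Saline 2 only.

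Genes whose pattern over the 8 libraries was most like a member were found by Pearson correlation of log2 CPM among 14779 protein-coding genes, as a description of libraries that share tissue makeup and the split by Xist. C3ar1 was closest to the glutamate transporter gene Slc1a1 (r = 0.973), Zfp973 (0.961) and the interferon-induced Ifi27l2a (0.96). C5ar1 was closest to the kinase gene Map3k8 (0.979), Ifitm2 (0.977) and Ptafr, the receptor of platelet-activating factor (0.977). C3 was closest to Fpr1, the formyl peptide receptor of neutrophils (0.974), the ferritin chain gene Fth1 (0.969) and Emb (0.967). C5ar2 was closest to Tmem132c (0.982), C1qbp to 2310033P09Rik (0.984) and Hspa8 to Zfp949 (0.958). The highest of 14779 correlations over only 8 libraries can be this large by chance, and none was tested. Among the members, C3 and C5ar1 had an r of 0.894 and C3ar1 and C5ar2 of 0.836.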

How the data were processed

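RNA of whole tumours was sequenced in 8 libraries, 4 labelled TLQP21 and 4 labelled Saline. Groups and replicate numbers follow the titles. Libraries were made with a NEBNext Ultra kit and read as paired ends, per the labels' protocols. The deposited table holds raw read counts per gene for 54532 genes. The tools named are DESeq2 1.32.0, featureCounts 1.5.0-p3 and HISAT2 2.0.5, with the build GRCm38 (mm10), per the submitters' processing notes. Neither the strand setting nor the annotation release is given in the sources used here.

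Counts were tested with edgeR 4.0.16 (R 4.3.3): default filter on low counts by group (18238 genes kept), trimmed-mean (TMM) scaling, quasi-likelihood test without covariates, Benjamini-Hochberg adjustment over all genes. CPM are TMM-scaled, log2 CPM use a prior count of 2, and CPM per kilobase use the deposited gene length. Fold changes are TLQP21 minus Saline. The 7 members, the gene lists, the list differences and the split by Xist were chosen with earlier results of these data known. Named list genes were the most abundant of a list or among its 4 smallest p-values, except Mrc1 and Fcgr1, chosen after their values were seen. DESeq2 1.42.0 and limma 3.58.1 were alternatives. The edgeR script was tested on simulated data. Nothing in the labels ties each library to its own animal, so the p-values cover only the spread among these samples. That spread is not only technical, since each group held libraries with Xist and libraries with Y-linked transcripts. Whether libraries of the same kind came from separate animals is not given. No libraries were identical. Coding and exon positions are from GENCODE M21 (GRCm38).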

Additional observations from a re-analysis of the deposited data

Results flagged for a closer look

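C5ar1 relative to neutrophil markers was 0.16 in Saline 4, far below the other 3 Saline libraries (0.73 to 0.82), with a gap of 0.87 of the group's range against a limit of 0.829 for 4 samples. It was the only value flagged among 40 groups of 4 libraries checked, and chance flags about 1 group in 20. Saline 4 also had the highest neutrophil level (5.42 log2 CPM) and the highest C5ar1 of any library (47.8 CPM). Without it the difference between TLQP21 and Saline was 0.22 in place of 0.37.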

How the results depend on the processing

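No member passed under any alternative in which it was tested: median-of-ratios scaling, plain library totals, no or a stricter filter, DESeq2, limma's voom with quality weights, a replicate block, the split by Xist as covariate, acinar and hepatocyte genes left out, and each library left out. The number of genes called was 0, except for DESeq2 with 4 and voom with 1. DESeq2 called Ighv7-4, Gpr141, Blvrb and Cd69 (0 higher, 4 lower), named after their values were seen. Voom called Ighv7-4 (lower). An unadjusted p under 0.05 was seen for 745 of 32380 genes by DESeq2 and for 1932 of 18238 by voom. The main edgeR test had 558 of 18238. With libraries left out in turn, log2 fold changes ran from -0.13 to 0.26 for C3ar1, from -0.67 to -0.23 for C5ar1, from -0.79 to -0.44 for C3, from -0.022 to 0.44 for C5ar2 and from -0.14 to 0.046 for Hspa8, which was also 0.011 with plain library totals. C5ar1 relative to neutrophil markers was -0.0084 against the list median. The cause of these turns was not tested. Deviations from the group means correlated at 0.115, 0.194, 0.271 and -0.0533 between libraries of equal replicate number. Between unequal numbers they ran from -0.433 (TLQP21 1 with Saline 3) to 0.304 (TLQP21 4 with Saline 3). These values cannot decide whether equal numbers mark a pair, because the numbers also carry the split by Xist. With the replicate block 0 genes were called, and log2 fold changes were -0.56 for C3 and 0.071 for C3ar1. Vgf is limited by depth, with 44 reads in TLQP21 and 24 in Saline.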
